A study of Mus musculus with 12 samples.

Results

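Murine neuroblastoma tumors labelled as treated with high intensity focused ultrasound (HIFU) at 48 h were compared with tumors labelled at 24 h, over every probe set of the array. The arrays were chosen by their titles alone: 3 titled for HIFU at 48 h and 3 titled for HIFU at 24 h, so 6 of the 12 arrays of the series carry the comparison. The 3 untreated control tumors are given as a reference, and the 3 tumors at 72 h entered only the estimate of the spread. The host of every tumor was the A/J mouse, inoculated with neuroblastoma cells, and frozen tumor tissue was profiled on Affymetrix Mouse Clariom S arrays, which carry 22206 probe sets here. The series set out to examine the mechanical fractionation of tumors by HIFU, in which focused sound breaks up tissue at the focus. The labels name no cell line and give no age, sex of the mice or acoustic dose. One label gives the times as the length of treatment and the titles as the time of the tumor, and they are read here as hours between HIFU and collection. Nor do they say that each tumor of a group had its own mouse, so the p-values measure only the spread between these samples, which may be technical.

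Neuroblastoma arises from the sympathetic lineage, and its cells commonly hold little major histocompatibility complex (MHC) class I until interferon reaches them. Interferon-gamma, released by T cells and natural killer cells, acts, in part through the transcription factor Irf1, on guanylate-binding proteins, immunity-related GTPases, CXCR3 chemokines, MHC class I chains and the immunoproteasome. Injured tissue first turns on immediate-early and stress genes and then fills with neutrophils and later with macrophages, while glucocorticoids released during stress act on a set of metabolic genes in muscle and other tissues.

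No gene passed the test. With limma and Benjamini-Hochberg adjustment over all 22206 probe sets, 0 had an adjusted p under 0.05 (0% of those tested), and the smallest adjusted p was 0.999, so every gene named below had an adjusted p of at least 0.999 and its difference is given as a value. At an unadjusted p under 0.05, 863 probe sets (3.89%) stood out, against 1110 that a share of 0.05 would give: 411 were higher at 48 h (1.85%) and 452 lower (2.04%). Differences are means of the deposited log2 signals at 48 h minus those at 24 h, so that 1 is a 2-fold difference. In 762 probe sets (3.43%) all 48 h arrays lay above all 24 h arrays, and in 821 (3.7%) all lay below. A 2-fold difference together with an unadjusted p under 0.05 was met by 61 probe sets in the upward direction (0.275%) and 93 in the downward direction (0.419%), 154 in all. That number was higher whenever any single 24 h or 48 h array was left out. At 24 h it was 377 without replicate 1, 318 without replicate 2 and 186 without replicate 3. At 48 h it was 218 without replicate 1, 337 without replicate 2 and 274 without replicate 3.

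The intervals show what this comparison could and could not resolve. The median standard error of a difference was 0.32, and the median 95% interval reached 0.70 to either side. For 11748 probe sets (52.9%) the whole interval lay within a 2-fold difference in either direction. The median half-width over members was 2.29 for neutrophil genes, 2.21 for macrophage genes, 2.35 for muscle fiber genes and 2.82 for fibroblast genes.

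**Figure D1:**
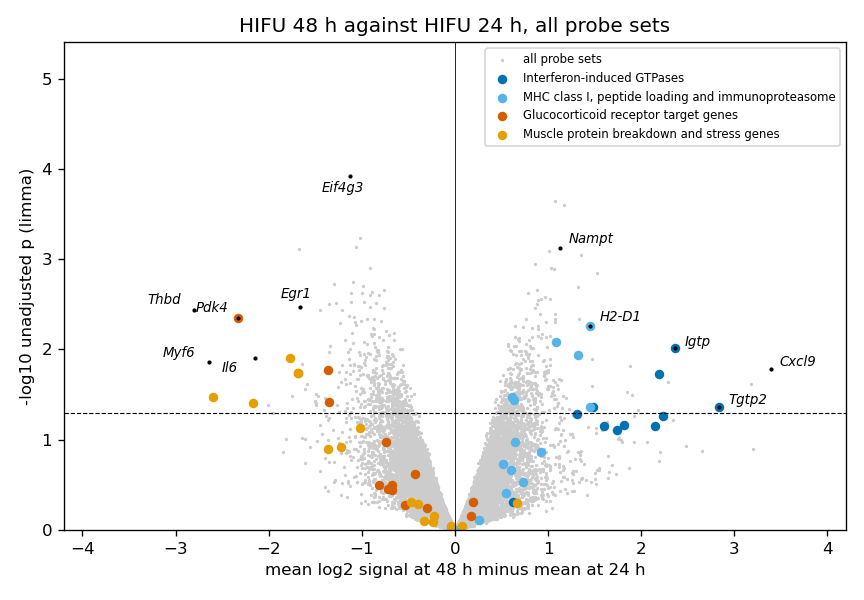
Each point is a probe set, with the mean log2 signal at 48 h minus the mean at 24 h on the horizontal axis and -log10 of the unadjusted limma p on the vertical axis; colours mark 4 gene lists, black dots with names single genes, and the dashed line an unadjusted p of 0.05. The interferon-induced GTPases all lie right of 0 and most glucocorticoid and muscle stress genes left of 0, and the smallest adjusted p was 0.999.

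The 6 arrays were not sorted by time. Pearson correlations of the log2 signals over all probe sets were 0.967 to 0.979 among the 24 h arrays, 0.968 to 0.983 among the 48 h arrays and 0.954 to 0.984 between the times. For 4 of the 6 arrays the closest other array was of the other time: replicate 1 at 24 h and replicate 2 at 48 h were closest to each other, as were replicate 2 at 24 h and replicate 3 at 48 h. The median over genes of the standard deviation among 3 arrays was 0.39 at 24 h, 0.36 at 48 h and 0.26 in the controls. Array medians of the 6 ranged from 5.44 to 5.55. The catecholamine enzyme Th, a marker of the adrenergic neuroblastoma cell, had log2 signals of 11.91, 13.48 and 11.58 at 24 h and 13.16, 11.12 and 13.27 at 48 h, well above the array medians in all 6.

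The highest median of the 49 lists was that of the interferon-induced GTPases, enzymes that attack the vacuoles of intracellular microbes and that serve as sensitive reporters of interferon-gamma. All 11 measured members had a higher mean at 48 h, with a median difference of 1.81, whereas the median over all probe sets was 0.00. At an unadjusted p under 0.05, 4 of the 11 were higher, and in 1 of the 11 the arrays did not overlap, beside 1.85% and 3.43% of all probe sets. Relative to the controls the list median was -4.06 at 24 h and -1.83 at 48 h; these 2 values share the control arrays. In bulk tissue, fewer cells that hold a transcript and less of it per cell cannot be told apart.

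Igtp (also called Irgm3), an immunity-related GTPase of the endoplasmic reticulum, had log2 signals of 4.88, 4.29 and 5.62 at 24 h and of 5.66, 7.68 and 8.54 at 48 h, against 10.35, 8.70 and 8.23 in the controls. The lowest 48 h tumor lay just above the highest 24 h tumor, and the other two 48 h tumors reached the range just below or within that of the controls. The difference was 2.36 ± 0.76 (standard error, as throughout; 95% interval 0.69 to 4.03). Iigp1, which coats parasite vacuoles, read 7.15, 6.09 and 5.98 at 24 h and 6.88, 9.05 and 9.88 at 48 h, a difference of 2.20 ± 0.80. Irgm1, a regulator of the same family that also acts in autophagy, read 7.69, 6.96 and 8.04 at 24 h and 7.71, 9.43 and 10 at 48 h, a difference of 1.48 ± 0.65. In Iigp1 and Irgm1 replicate 1 at 48 h lay within the 24 h range, while replicates 2 and 3 lay above it. Tgtp2, another GTPase of the list, read 6.60, 5.11 and 7.52 at 24 h and 6.38, 9.87 and 11.50 at 48 h, a difference of 2.84 ± 1.25. It has a near-identical neighbour, Tgtp1, whose signal its probes may share.

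The shift came from replicates 2 and 3 at 48 h. When each gene was set against its mean over the 24 h arrays, the list median was 0.39, -1.0 and 0.66 in the 24 h arrays and 0.25, 2.64 and 2.60 in the 48 h arrays, with replicate 1 at 48 h inside the 24 h range; the controls gave 5.42, 3.48 and 2.84. Without replicate 1 at 48 h, 10 of the 11 genes reached an unadjusted p under 0.05 and the median was 2.73. Without replicate 3 at 48 h none did, without replicate 2 at 48 h 1 did, and without replicate 2 at 24 h 1 did, at a median of 1.33. Over all 22206 probe sets, 384 were higher at an unadjusted p under 0.05 without replicate 1 at 48 h.

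The promoters of these genes are shown because the members' means all lay in 1 direction and the windows carry a common short element. The interferon-stimulated response element, which binds Irf factors, contains a pair of GAAA cores, and the letters GAAANNGAAA (N is any base) were searched on both strands of the RefSeq promoter windows of build GRCm38.p6, each of 300 bases from 250 before to 50 after an annotated start. They occurred in 1131 of 32851 windows, 3.44%. Of the 11 GTPase genes, 7 have a window in that table and all 7 (Igtp, Irgm1, Tgtp2, Gbp2, Gbp7, Gbp3 and Irgm2) hold the letters in at least 1 window; these genes are related by descent and are not independent. Igtp (chr11:58199306-58199605, plus strand), Irgm1 (chr11:48871371-48871670, minus strand), Tgtp2 (chr11:49064163-49064462, minus strand) and Gbp2 (chr3:142620413-142620712, plus strand) are printed 5′ to 3′ along the gene with the matches in capitals. The match begins 34 bases before the start in Igtp, 70 in Tgtp2 and 59 in Gbp2, where it lies on the opposite strand and reads as its complement. Irgm1 has 2 overlapping matches, beginning 30 and 24 bases before the start. A match describes letters and does not show binding. The 3.44% is a share of windows, while the 7 genes, which have 8 windows, are counted by gene. The list was chosen as interferon-induced genes, so these matches do not bear on 48 h against 24 h.
Igtp: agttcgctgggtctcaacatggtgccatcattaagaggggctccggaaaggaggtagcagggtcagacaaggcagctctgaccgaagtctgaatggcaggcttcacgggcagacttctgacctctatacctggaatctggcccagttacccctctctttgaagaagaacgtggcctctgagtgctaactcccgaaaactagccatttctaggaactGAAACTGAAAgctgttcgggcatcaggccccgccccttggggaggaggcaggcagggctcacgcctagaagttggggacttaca
Irgm1: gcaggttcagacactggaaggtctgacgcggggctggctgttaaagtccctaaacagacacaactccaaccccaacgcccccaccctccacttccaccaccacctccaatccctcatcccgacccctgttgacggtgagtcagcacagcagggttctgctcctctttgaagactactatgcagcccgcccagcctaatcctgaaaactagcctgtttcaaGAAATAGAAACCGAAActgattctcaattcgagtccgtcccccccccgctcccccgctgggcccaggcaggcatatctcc
Tgtp2: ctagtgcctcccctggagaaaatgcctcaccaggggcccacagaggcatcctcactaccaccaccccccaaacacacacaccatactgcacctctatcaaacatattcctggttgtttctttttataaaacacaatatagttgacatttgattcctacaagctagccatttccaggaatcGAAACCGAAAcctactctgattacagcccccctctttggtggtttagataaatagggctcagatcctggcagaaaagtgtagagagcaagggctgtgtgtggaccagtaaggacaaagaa
Gbp2: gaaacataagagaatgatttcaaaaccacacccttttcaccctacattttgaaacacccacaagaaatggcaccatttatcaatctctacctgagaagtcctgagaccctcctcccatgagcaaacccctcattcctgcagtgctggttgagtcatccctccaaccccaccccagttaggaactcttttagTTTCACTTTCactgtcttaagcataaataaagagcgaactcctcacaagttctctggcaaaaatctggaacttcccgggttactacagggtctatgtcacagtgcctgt

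Genes of the interferon-gamma pathway itself were divided. Of 13 measured genes of the signal core and the CXCR3 chemokines, 10 had a higher mean at 48 h and 2 a lower one. The median was 0.26 (0.17 without replicate 2 at 24 h, 0.41 without replicate 3 at 24 h). At an unadjusted p under 0.05, 2 of the 13 were higher, beside 1.85% of all probe sets, and in none did the arrays separate. Cxcl9, a chemokine that draws activated T cells through CXCR3, had the largest difference of all named genes at 3.39 ± 1.21, with log2 signals of 4.86, 3.83 and 6.13 at 24 h and 5.35, 9.14 and 10.50 at 48 h. Replicate 1 at 48 h again lay inside the 24 h range, and replicates 2 and 3 lay far above it, near the controls at 11.47, 9.40 and 9.77. The transcription factor Irf1 read 8.41, 7.66 and 8.84 at 24 h and 8.46, 10.21 and 9.83 at 48 h, a difference of 1.20 ± 0.50. Cxcl10, a chemokine of the same receptor, differed by 0.94 ± 0.72 and the checkpoint ligand Cd274 (PD-L1) by 1.29 ± 0.87, with 95% intervals of -0.65 to 2.52 and -0.61 to 3.19.

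MHC class I genes were higher too, with less scatter. Of 15 measured genes for class I chains, peptide loading and the immunoproteasome, 14 had a higher mean at 48 h, with a median difference of 0.64; 6 of 15 reached an unadjusted p under 0.05 and 6 of 15 did not overlap, all upward, beside 1.85% and 3.43% of all probe sets. The per-array medians, set against the 24 h means, were 0.06, -0.04 and -0.03 at 24 h and 0.33, 1.25 and 1.22 at 48 h. This was 1 of only 2 lists of 49 whose 3 medians at 48 h lay wholly on one side of those at 24 h; the other was the skin list. The controls gave 2.32, 1.71 and 1.63, above every HIFU array. The number at an unadjusted p under 0.05 was 3 without replicate 3 at 24 h, without replicate 2 at 48 h or without replicate 3 at 48 h, 4 without replicate 1 at 24 h, and 7 without replicate 1 at 48 h, where the median was 1.28. In that last setting, 384 of all 22206 probe sets were higher at that p.

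H2-D1, a classical class I heavy chain, read 9.02, 8.61 and 8.90 at 24 h and 9.68, 10.73 and 10.47 at 48 h, a difference of 1.45 ± 0.42 (95% interval 0.52 to 2.38). H2-K1, the other classical chain of this kind, read 13.60, 13.38 and 14.17 at 24 h and 14.28, 15.18 and 14.94 at 48 h, a difference of 1.08 ± 0.34. The class I chains are close relatives and their probes may share signal. Psmb8, a catalytic subunit that replaces its constitutive partner in the immunoproteasome, read 7.70, 7.16 and 7.55 at 24 h and 7.99, 9.38 and 8.99 at 48 h, a difference of 1.32 ± 0.44. Psme1, a subunit of the proteasome activator PA28, read 14.93, 15.20 and 14.61 at 24 h and 15.57, 15.55 and 15.46 at 48 h, a difference of 0.61 ± 0.25. In all 4 every 48 h array lay above every 24 h array. The GAAANNGAAA letters were in the promoter windows of 5 of the 14 class I genes that have one, Psme1 among them, and not in those of H2-D1, H2-K1 or Psmb8. This count is by gene, and the 14 genes have 16 windows.

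**Figure D2:**
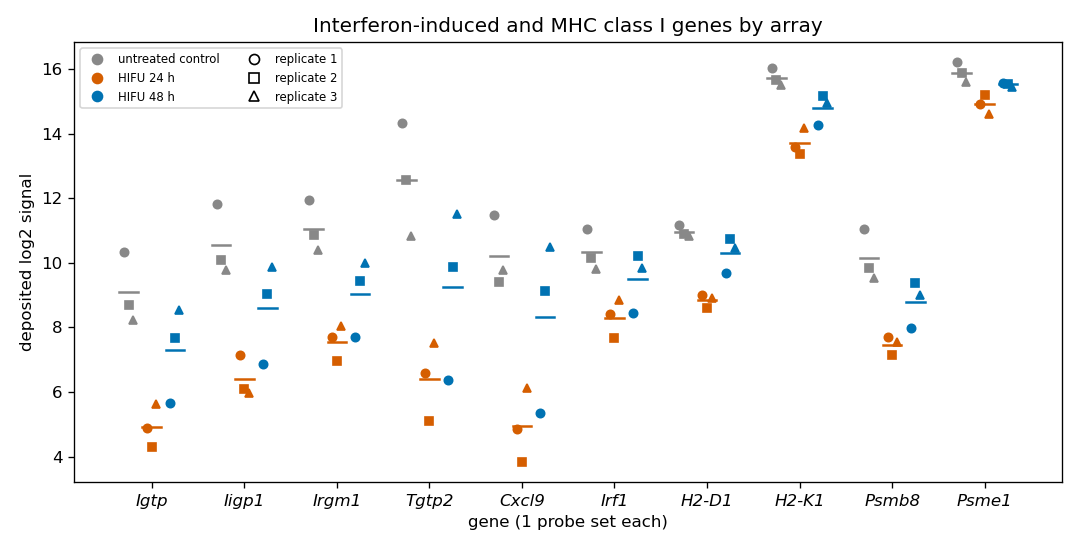
Deposited log2 signal of 10 interferon-induced and MHC class I genes in the 3 control, 3 HIFU 24 h and 3 HIFU 48 h arrays; each symbol is an array, shaped by replicate number, and the bar is the group mean. Replicate 1 at 48 h (circle) sits near the 24 h arrays in the GTPases and Cxcl9, while in H2-D1, H2-K1, Psmb8 and Psme1 all 48 h arrays lie above all 24 h arrays.

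The medians of the other antigen presentation and interferon lists were smaller. Of 23 antiviral genes induced by type I interferon, 14 were higher and 9 lower at 48 h (median 0.18), and 0 reached an unadjusted p under 0.05. The values were 0.65 ± 0.45 for Stat2, a signal transducer of type I interferon, 0.96 ± 0.69 for the RNA sensor Ifih1, 1.27 ± 0.98 for Oasl2 and 0.98 ± 0.78 for the virion tether Bst2. Against the controls the median of this list was -1.72 at 24 h and -1.85 at 48 h. Among 11 MHC class II genes 9 were higher, with a median of 0.31 and 0 at an unadjusted p under 0.05; H2-Aa, a class II chain, differed by 0.80 ± 0.61 and H2-DMb1, a peptide exchanger, by 0.74 ± 0.52. In both lists leaving out replicate 2 at 48 h or replicate 2 at 24 h turned the median below 0 (as low as -0.06), and without replicate 1 at 48 h the antiviral median was 0.59 and that of class II 0.57.

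Lymphocyte transcripts had low signals. Of 17 T cell, cytotoxic and NK cell genes 12 were higher at 48 h, with a median of 0.13 that was -0.075 without replicate 2 at 48 h, -0.037 without replicate 2 at 24 h, 0.29 without replicate 3 at 24 h and 0.32 without replicate 1 at 48 h. Cd3d, a chain of the T cell receptor complex, was the 1 member at an unadjusted p under 0.05, beside 1.85% of all probe sets higher. It read 3.72, 4.27 and 4.0 at 24 h and 5.16, 4.54 and 4.61 at 48 h, a difference of 0.77 ± 0.28. Klrk1 (NKG2D), an activating receptor of NK and T cells, read 4.33, 3.82 and 3.74 at 24 h and 4.70, 4.62 and 4.63 at 48 h, a difference of 0.69 ± 0.50. For both, the 48 h arrays lay wholly above the 24 h arrays but at low signals: the median over all probe sets was 5.52. Cd8a, the co-receptor of cytotoxic T cells, differed by 0.62 ± 0.39. Irf8, a regulator of dendritic cells and monocytes, read 4.69, 4.28 and 4.64 at 24 h and 4.87, 5.78 and 5.08 at 48 h, a difference of 0.71 ± 0.31, while the 13 dendritic cell genes had a median of 0.03. Pvr, the ligand of the checkpoint receptor Tigit, differed by -1.35 ± 0.49, with 10.50, 9.19 and 10.51 at 24 h and 7.91, 9.74 and 8.49 at 48 h.

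Among the lists with a median below 0, glucocorticoid targets had the lowest, followed by the metallothionein list and the muscle stress genes. Of 14 glucocorticoid receptor targets, 12 had a lower mean at 48 h, with a median difference of -0.70; 4 of 14 reached an unadjusted p under 0.05 and 3 of 14 did not overlap, all downward, beside 2.04% and 3.7% of all probe sets. The list median was 1.98 above the controls at 24 h and 1.23 above at 48 h. Per array it was 0.24, -0.68 and 0.34 at 24 h and -1.16, -0.90 and -0.64 at 48 h, so that replicate 2 at 24 h met the 48 h range. Of 15 genes of muscle protein breakdown and stress, 13 were lower, with a median of -0.47, 4 at an unadjusted p under 0.05 and 4 without overlap. Cdkn1a stands on both lists. Both medians depended on single arrays: without replicate 2 at 24 h they were -1.16 and -1.22, without replicate 1 at 24 h the glucocorticoid median was -0.46, and the muscle median was -0.95 without replicate 3 at 24 h, -0.78 without replicate 2 at 48 h and -0.27 without replicate 3 at 48 h. The number of muscle stress genes at an unadjusted p under 0.05 was 1 without replicate 1 at 24 h or without replicate 1 at 48 h. It was 2 without replicate 3 at 24 h, replicate 2 at 48 h or replicate 3 at 48 h, and 6 without replicate 2 at 24 h. That of glucocorticoid targets was 2 without replicate 3 at 24 h or without replicate 1 at 48 h. With single 24 h or 48 h arrays left out, 724 to 1053 of all 22206 probe sets reached that p in either direction. Without replicate 2 at 24 h it was 1037, of which 449 were higher.

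Pdk4, a kinase that shuts pyruvate out of the mitochondrial cycle during fasting and stress, read 15.27, 14.48 and 14.82 at 24 h and 12.43, 11.25 and 13.89 at 48 h, against 8.39, 8.08 and 7.88 in the controls. The difference was -2.33 ± 0.66 (95% interval -3.78 to -0.89), and every HIFU array still lay above every control. Errfi1, a feedback inhibitor of the epidermal growth factor receptor, read 12.18, 11.47 and 12.95 at 24 h and 10.70, 11.07 and 10.73 at 48 h, a difference of -1.37 ± 0.49. Cdkn1a, the cell cycle inhibitor p21, read 13.98, 12.18 and 12.75 at 24 h and 10.99, 11.99 and 10.88 at 48 h, a difference of -1.68 ± 0.61. In these 3 genes the groups did not overlap. The clock repressor Per1, also a glucocorticoid target, differed by -1.35 ± 0.58 with overlapping arrays.

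The muscle side held Retreg1, which delivers endoplasmic reticulum to autophagosomes, with 15.35, 14.25 and 14.94 at 24 h and 12.10, 12.95 and 14.17 at 48 h, a difference of -1.77 ± 0.60. Trim63 (MuRF1), the ubiquitin ligase that marks sarcomere proteins for breakdown, read 14.85, 13.59 and 13.99 at 24 h and 11.85, 11.09 and 13 at 48 h, a difference of -2.16 ± 0.93, with controls at 6.25, 6.72 and 7.16. In both genes the 48 h arrays lay between the controls and the 24 h arrays without touching either. Ankrd1, a stretch-responsive sarcomere protein, read 16.71, 12.86 and 16.55 at 24 h and 14.07, 12.42 and 11.85 at 48 h, a difference of -2.59 ± 1.07 with overlap at replicate 2 of 24 h. The other atrophy ligase, Fbxo32 (atrogin-1), differed by -1.22 ± 0.72, with 13.38, 11.32 and 12.27 at 24 h and 11.60, 9.75 and 11.96 at 48 h.

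Skeletal muscle structure genes had no such shift in their median. The 22 muscle fiber genes had a median difference of 0.00, with 11 higher and 11 lower and none at an unadjusted p under 0.05, and the median 95% interval of a member reached 2.35 to either side. Their per-array medians ran from -1.33 in replicate 2 at 24 h to 1.83 in replicate 1 at 24 h, and all 22 genes had their highest signal of the 6 arrays in that replicate 1; without it the median was 0.86, and without replicate 2 at 24 h it was -0.50. Mylpf, a fast myosin light chain, read 17.22, 13.06 and 14.55 at 24 h and 15.87, 17.15 and 13.96 at 48 h, and the giant sarcomere protein Ttn read 15.13, 11.24 and 13.25 at 24 h and 14.32, 14.43 and 12.52 at 48 h. Muscle fiber signal thus spanned more within the 24 h group than between the group means; its part in the differences of Pdk4, Trim63 and the other muscle-expressed genes was not tested.

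Most myogenic genes also had a lower mean. Myf6 (MRF4), the myogenic regulator of mature fibers, read 12.57, 9.93 and 12.29 at 24 h and 9.29, 9.05 and 8.52 at 48 h, a difference of -2.64 ± 0.91 without overlap, against 5.78, 4.94 and 5.03 in the controls. Myod1, which commits cells to the muscle lineage, differed by -0.67 ± 0.29 at low signal. Of the 12 myogenic and satellite cell genes 9 were lower, with a median of -0.14 that ranged from -0.33 without replicate 2 at 24 h to -0.044 without replicate 3 at 24 h. In 1 of the 12 the 48 h arrays lay wholly below the 24 h arrays and in 1 wholly above, beside 3.7% and 3.43% of all probe sets. Ppargc1a, a coactivator of mitochondrial genes, read 7.34, 6.59 and 6.92 at 24 h and 4.94, 6.13 and 5.75 at 48 h, a difference of -1.34 ± 0.58 without overlap, whereas the median of the 14 genes of fatty acid uptake and oxidation was 0.12 and, without replicate 2 at 48 h, -0.14. Klhl40, a stabilizer of thin filaments named only after its values were seen, differed by -2.0 ± 0.87, and the co-chaperone Bag3, which clears damaged filament proteins, by -1.49 ± 0.61.

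**Figure D3:**
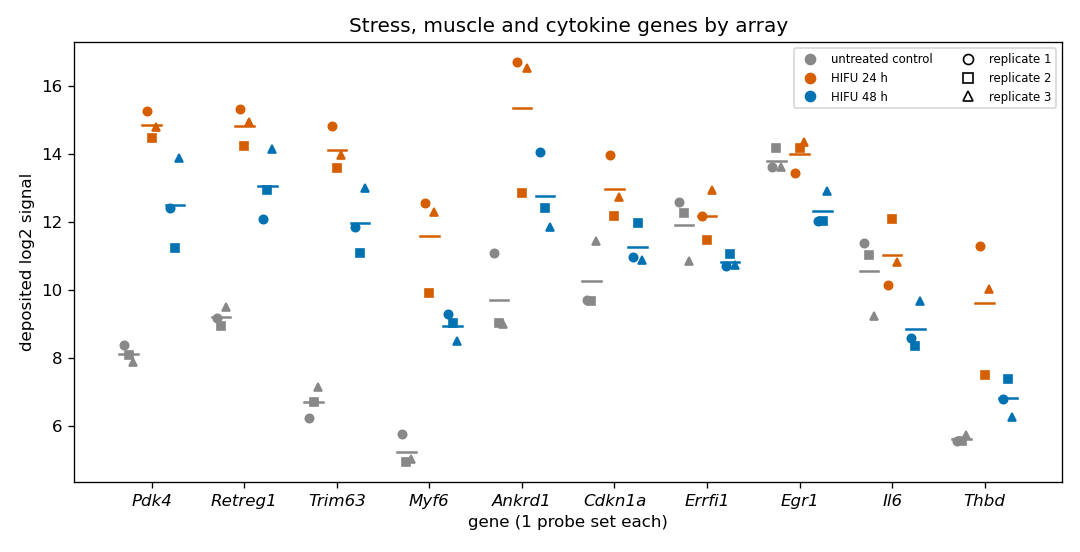
Deposited log2 signal of 10 stress, muscle and cytokine genes in the 3 control, 3 HIFU 24 h and 3 HIFU 48 h arrays; each symbol is an array, shaped by replicate number, and the bar is the group mean. The 48 h arrays lie below the 24 h arrays without overlap in every gene but Ankrd1, and in Pdk4, Retreg1, Trim63, Myf6 and Thbd they lie between the 24 h arrays and the controls.

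The genes that differ from the untreated tumors give a reference for these levels. At an adjusted p under 0.05 (limma, Benjamini-Hochberg over all probe sets), 12 genes differed from the controls at 24 h (0.054% of probe sets) and 1 at 48 h (0.0045%), namely Lcn2, which is among the 12. They are described and not tested here, since they were chosen on the same 24 h or 48 h arrays. From 24 h to 48 h, 10 of the 12 were lower and 2 higher. Of the 12, 5 were lower without overlap (Pdk4, Retreg1, Myf6, Trim63 and Abra), beside 3.7% of all probe sets, and 7 overlapped. All 12 passed the threshold at 24 h, and such a choice favours values nearer the controls at 48 h. These counts therefore do not show a decline. Cnksr1, a scaffold of Ras signalling, read 8.73, 6.14 and 8.09 at 24 h and 5.05, 6.54 and 5.98 at 48 h, with controls at 2.99, 3.01 and 3.19. Abra, an actin-binding protein of striated muscle, differed by -1.02 ± 0.52 and the small heat shock protein Hspb7 by -1.37 ± 0.83.

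Lcn2 (lipocalin 2), a siderophore-binding protein of neutrophils and injured epithelia, read 14.87, 13.36 and 15.23 at 24 h and 14.29, 15.76 and 15.28 at 48 h, against 6.45, 6.53 and 8.09 in the controls. The times overlapped, with a difference of 0.62 ± 0.74 (95% interval -1.0 to 2.25). Cd72, best known as a B cell co-receptor, was the other gene with a higher mean at 48 h, at 7.73, 6.71 and 7.71 at 24 h and 7.06, 9.43 and 8.27 at 48 h, far below its control signals of 14.66, 11.72 and 11.77. The metallothioneins Mt1 and Mt2, which bind zinc and copper, were near the top of the scale at both times. Mt2 read 19.21, 17.11 and 18.74 at 24 h and 16.85, 18.53 and 17.22 at 48 h (difference -0.82 ± 0.79), and Mt1 differed by -0.55 ± 0.57. The zinc importer Slc39a14 differed by -1.47 ± 0.61 and Mtf1, the metal-sensing transcription factor of this system, by -0.52 ± 0.30; 5 of the 7 genes of the metallothionein list were lower, with a median of -0.52 that was -0.34 without replicate 1 at 48 h and -0.28 without replicate 3 at 24 h.

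Of 16 immediate-early transcription factors 13 had a lower mean, with a median of -0.43 and 1 lower at an unadjusted p under 0.05. Without overlap, 3 lay below and 1 above. Of all probe sets, 2.04% were lower at that p, and 3.7% lay below and 3.43% above without overlap. With replicate 2 at 24 h left out, 4 members were lower at that p. In that setting 1037 of all 22206 probe sets reached it, 449 of them higher. Without replicate 3 at 24 h the median was -0.28. Egr1, a zinc finger factor turned on within minutes of growth factor or mechanical stimuli, read 13.45, 14.19 and 14.36 at 24 h and 12.04, 12.04 and 12.92 at 48 h, a difference of -1.67 ± 0.45 (95% interval -2.66 to -0.68). The controls, at 13.62, 14.18 and 13.64, lay with the 24 h arrays, so the 48 h tumors were the group that stood apart. Its relative Egr2 differed by -0.49 ± 0.26, Fos by -0.80 ± 0.41 and Jun by -1.15 ± 0.72.

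Il6, a cytokine of the acute phase response, read 10.15, 12.09 and 10.83 at 24 h and 8.59, 8.35 and 9.68 at 48 h, a difference of -2.15 ± 0.73 without overlap; the controls read 11.38, 11.05 and 9.24. Csf2 (GM-CSF), a growth factor of myeloid cells, lay the other way at low signal, with 2.81, 3.10 and 3.36 at 24 h and 4.53, 3.71 and 3.47 at 48 h, a difference of 0.81 ± 0.29. They were the only members of the 17 measured interleukin and related cytokine genes at an unadjusted p under 0.05, 1 in each direction, and the list median of -0.04 changed sign with the array left out. Over all probe sets, 1.85% were higher and 2.04% lower at that p. Il11 differed by -0.89 ± 0.52 and Il1b, the pyrogen of activated macrophages and neutrophils, by 0.27 ± 1.33, a value too wide to place. Chemokine and damage signal lists had more members higher than lower at 48 h. Of 10 neutrophil-attracting CXC chemokines and receptors 8 were higher, with a median of 0.42, while the neutrophil chemokine Cxcl1 differed by -0.79 ± 0.42 without overlap. Of 12 CC chemokines of myeloid recruitment 7 were higher, with a median of 0.09, while the monocyte chemokine Ccl2 differed by -0.90 ± 1.06. Of 14 damage signals and sensors 11 were higher, with a median of 0.18, while P2rx7, the ATP-gated channel that senses dying cells, differed by -1.22 ± 0.46 and was the 1 member at an unadjusted p under 0.05. Without replicate 2 at 48 h these 3 medians were -0.38, -0.85 and -0.051, and without replicate 1 at 24 h they were 1.03, 0.27 and 0.37.

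Thbd (thrombomodulin), the endothelial receptor that turns thrombin toward anticoagulation, had the largest downward difference of the genes named here. It read 11.31, 7.49 and 10.04 at 24 h and 6.80, 7.38 and 6.27 at 48 h, with controls at 5.55, 5.55 and 5.73. The 48 h arrays lay just below replicate 2 at 24 h and over 2 log2 units below the other two; the difference was -2.80 ± 0.77 (95% interval -4.48 to -1.12). Without replicate 2 at 24 h, Thbd had the smallest p of all probe sets, at an adjusted p of 0.334. The 12 endothelial genes had a median of -0.20 (0.28 without replicate 1 at 24 h), and the 12 coagulation genes, Thbd included, of 0.005.

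Neutrophil genes were higher at 48 h in every member, with intervals too wide for the test. All 22 measured granule and surface genes had a higher mean, with a median of 1.12, 0 at an unadjusted p under 0.05 and 1 without overlap, and the median 95% interval reached 2.29 to either side. These counts stand beside 1.85% and 3.43% of all probe sets. The per-array medians were 0.17, -0.97 and 0.44 at 24 h and 0.01, 1.51 and 1.64 at 48 h, with replicate 1 at 48 h again among the 24 h arrays. S100a8, an alarmin of the neutrophil cytosol, read 9.85, 3.78 and 8.86 at 24 h and 7.49, 10.16 and 12.80 at 48 h, a difference of 2.65 ± 1.65, and its partner S100a9 differed by 2.21 ± 1.38. The collagenase Mmp8 read 6.42, 3.02 and 6.67 at 24 h and 5.60, 7.46 and 8.82 at 48 h, a difference of 1.92 ± 1.10, and the protease inhibitor Stfa2 differed by 1.76 ± 0.97. Without replicate 3 at 48 h the median was 0.46 with 18 of 22 higher, without replicate 2 at 48 h 0.71 with 17 higher, without replicate 2 at 24 h 0.73 with 19 higher, and without replicate 1 at 48 h it was 1.86, with 7 at an unadjusted p under 0.05. In that last setting, 384 of all 22206 probe sets were higher at that p.

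Some granule genes had a single high array, replicate 3 at 48 h. Ngp, a secondary granule protein, read 4.17, 3.13 and 4.57 at 24 h and 3.43, 4.79 and 13.25 at 48 h, and myeloperoxidase, Mpo, read 3.28, 3.08 and 3.81 at 24 h and 3.61, 3.51 and 10.49 at 48 h; both were named after their values were seen. Lactoferrin, Ltf, read 2.98, 2.84 and 3.59 at 24 h and 4.12, 3.92 and 6.62 at 48 h. Replicate 3 at 48 h was the highest of the 6 arrays by at least 2 log2 units in 7 of the 22 neutrophil genes, beside 0.14% of all probe sets.

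Genes of other lineages were also high in that array. It was highest by at least 2 log2 units in 3 of 7 erythroid genes and 3 of 12 skin genes, and highest by any margin in 6 of 7 platelet genes and 5 of 7 erythroid genes, beside 12.9% of all probe sets. Rhag, a red cell membrane protein, read 3.79, 3.50 and 3.56 at 24 h and 3.17, 3.19 and 8.05 at 48 h, and the carbonic anhydrase Car1 read 3.78, 4.09 and 3.52 at 24 h and 4.0, 4.44 and 8.32 at 48 h. Slc4a1, the anion exchanger of the red cell, differed by 1.65 ± 1.07, and 2 platelet genes, the integrin Itgb3 and the platelet chemokine Ppbp, by 1.52 ± 0.77 and 1.65 ± 1.29. The erythroid median was 0.39 over 7 measured genes and -0.06 without this tumor, and the platelet median was 0.34 and 0.10. Ibsp, a bone matrix protein, read 2.96, 3.05 and 2.90 at 24 h and 3.40, 3.86 and 5.47 at 48 h, and Acp5, an acid phosphatase of osteoclasts and macrophages, read 6.42, 6.58 and 6.44 at 24 h and 7.29, 8.35 and 9.45 at 48 h, a difference of 1.88 ± 0.66 without overlap. The other members kept the bone and osteoclast median at 0.13, which was -0.02 without replicate 2 at 24 h. The part of these cell types in the other differences was not tested.

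Skin genes formed the second list whose array medians did not overlap. Of 12 keratinocyte genes 11 were higher at 48 h, with a median of 0.76, 3 at an unadjusted p under 0.05 and 3 without overlap, beside 1.85% and 3.43% of all probe sets. Krt15, a keratin of basal cells, read 2.97, 3.53 and 3.13 at 24 h and 4.32, 3.91 and 3.98 at 48 h, a difference of 0.86 ± 0.23. The desmosome protein Dsc3 read 3.27, 3.19 and 3.39 at 24 h and 4.07, 4.52 and 5.26 at 48 h, a difference of 1.33 ± 0.38. Krt14 differed by 0.89 ± 0.35 and Krtdap, a marker of differentiating layers, by 1.25 ± 0.67. The signals were low, and the per-array medians were 0.05, -0.04 and -0.06 at 24 h and 0.19, 0.23 and 1.80 at 48 h, so most of the shift was that of replicate 3: without it the median was 0.19 and 8 of 12 genes were higher.

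**Figure D4:**
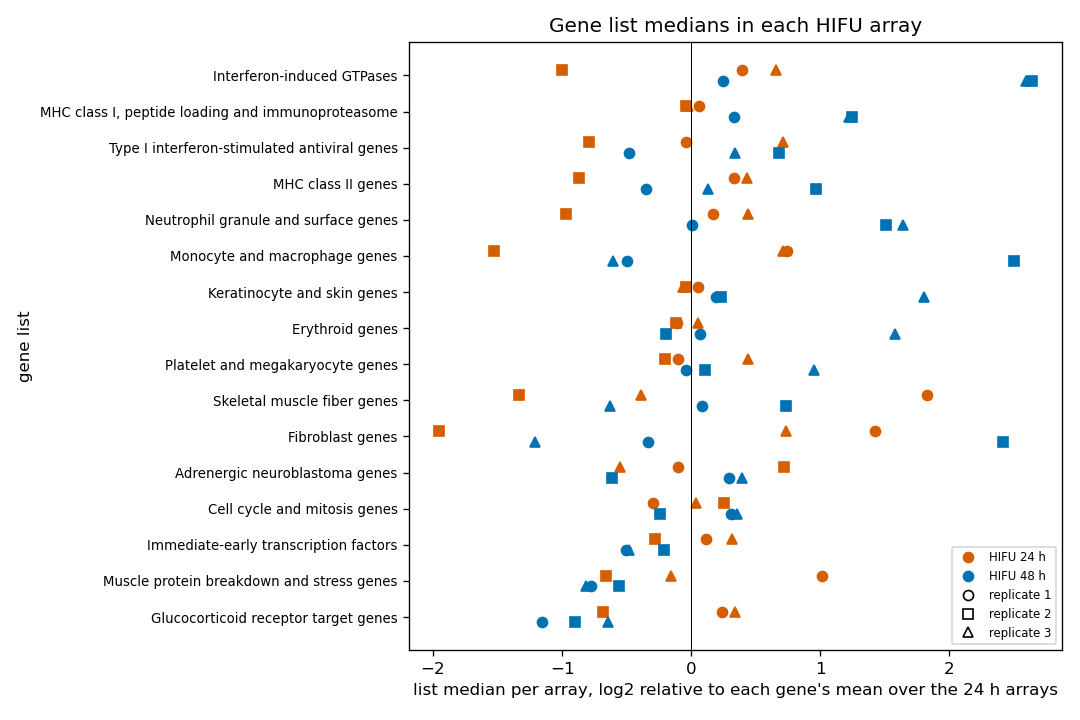
For 16 gene lists, the median over members in each HIFU array, in log2 units relative to each gene's mean over the 24 h arrays; orange is 24 h, blue is 48 h, and the symbol gives the replicate number. Only the MHC class I and skin lists have the 48 h arrays wholly on one side of the 24 h arrays, and replicate 1 at 48 h lies among the 24 h arrays in the GTPase and neutrophil lists.

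Macrophage and fibroblast genes varied widely among the tumors of each time. The 17 monocyte and macrophage genes had per-array medians of 0.74, -1.53 and 0.71 at 24 h and -0.50, 2.50 and -0.61 at 48 h, and 15 of the 17 were highest in replicate 2 at 48 h. Aif1 (Iba1) differed by 1.16 ± 0.97 and Adgre1 (F4/80) by 0.76 ± 0.70, and the list median of 0.56 turned to -0.48 without that replicate and to -0.26 without replicate 2 at 24 h. Arginase, Arg1, read 10.20, 5.80 and 10.34 at 24 h and 8.56, 11.94 and 5.52 at 48 h, and heme oxygenase, Hmox1, read 16.05, 13.51 and 17.20 at 24 h and 14.82, 17.68 and 13.39 at 48 h. Each time spanned more than 3 log2 units in these genes, and the differences were -0.11 ± 1.51 and -0.29 ± 1.21. Fibroblast genes gave 1.42, -1.95 and 0.73 at 24 h and -0.34, 2.41 and -1.21 at 48 h, and their median of 0.35 was -0.71 without replicate 2 at 24 h; the fibroblast protease Fap differed by 0.83 ± 0.69 and the matrix proteoglycan Lum by 0.72 ± 1.30. Ctsz, a lysosomal carboxypeptidase, was an exception among phagocyte genes: it read 12.08, 12.08 and 11.72 at 24 h and 12.78, 13.12 and 12.94 at 48 h, a difference of 0.99 ± 0.32 without overlap, and the cholesterol carrier Npc2 differed by 0.81 ± 0.49 without overlap.

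Tumor cell and proliferation genes had small median differences. The 17 adrenergic neuroblastoma genes had a median of 0.14, with 11 higher, 6 lower and 0 at an unadjusted p under 0.05. That median ranged from -0.16 without replicate 3 at 24 h to 0.47 without replicate 2 at 24 h, and was also below 0 without replicate 1 or replicate 3 at 48 h. The receptor kinase Alk differed by -0.84 ± 0.47, the amine-forming decarboxylase Ddc by 0.61 ± 0.58 and Th by 0.19 ± 0.93. Among 20 cell cycle genes 14 were higher (median 0.16), with 1 at an unadjusted p under 0.05 and 4 without overlap, and among 19 DNA replication genes 15 were higher (median 0.22), with 1 and 2. These counts were all upward, beside 1.85% and 3.43% of all probe sets. The cell cycle median was -0.016 without replicate 1 at 24 h, 0.016 without replicate 1 at 48 h, 0.34 without replicate 2 at 24 h and 0.37 without replicate 2 at 48 h. The replication median was 0.14 without replicate 3 at 24 h or replicate 1 at 48 h, 0.46 without replicate 2 at 24 h and 0.40 without replicate 2 at 48 h, where 5 genes reached an unadjusted p under 0.05. In that last setting, 612 of all 22206 probe sets were higher at that p. The checkpoint kinase Bub1b read 10.48, 9.88 and 10.73 at 24 h and 11.96, 11.23 and 10.81 at 48 h, a difference of 0.97 ± 0.36, and the mitotic motor Kif20a differed by 0.67 ± 0.33 without overlap. Rrm2, a subunit of ribonucleotide reductase, differed by 0.79 ± 0.33 and the helicase subunit Mcm6 by 0.78 ± 0.36. Mki67, the common marker of cycling cells, differed by 0.16 ± 0.29 (95% interval -0.47 to 0.79), which places it within a 2-fold difference in either direction.

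Clock genes showed an opposed pair. Dbp, an output factor driven by the clock activators, read 9.16, 9.81 and 8.60 at 24 h and 11.31, 13.04 and 10.24 at 48 h, a difference of 2.34 ± 1.12 without overlap, and Arntl (Bmal1), a clock activator, differed by -0.79 ± 0.38 without overlap. Of 17 clock genes 12 were lower, with a median of -0.08 (-0.26 without replicate 2 at 48 h). The labels give no hour of day for the collections.

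The 20 named genes with the smallest unadjusted p, 10 in each direction and predicted genes left out, had differences of 0.79 to 1.68 in size, and in all 20 the arrays did not overlap. A choice by smallest p favours genes whose replicates lie close together. Eif4g3, a scaffold of translation initiation, had the smallest p: it read 8.13, 8.36 and 8.37 at 24 h and 7.35, 7.08 and 7.04 at 48 h, a difference of -1.13 ± 0.20. The RNA-editing enzyme Adarb1 differed by -1.02 ± 0.22, the actin nucleation factor Whamm by -1.06 ± 0.23, the zinc finger gene Zfp280d by -1.68 ± 0.37 and the Mediator subunit Med15 by -0.89 ± 0.23. The other downward genes were Cyp7a1, the rate-limiting enzyme of bile acid synthesis, Rabep2, Tex2, Plac8l1 and Zfp398, at -1.11 to -0.91.

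Nampt, the rate-limiting enzyme of NAD salvage, read 10.62, 10.50 and 10.19 at 24 h and 11.69, 11.54 and 11.46 at 48 h, with controls at 11.20, 11.13 and 11.32 between them, a difference of 1.13 ± 0.25 (95% interval 0.59 to 1.67). The formin Diaph3, which builds actin filaments, read 7.13, 7.24 and 6.51 at 24 h and 8.89, 7.68 and 8.36 at 48 h, a difference of 1.35 ± 0.30, and the lysosomal protease Ctsf differed by 1.32 ± 0.33. The remaining upward genes were Adig, Cldn34b3, Gdf9, Lhx8, Aamp, Tas2r131 and the Y-linked Usp9y, at 0.79 to 1.17. Of the 20, 7 had a mean signal below the median of all probe sets and 2 below the lowest 25%, where small differences are least certain. For 17 of the 20 the 48 h arrays lay outside the range of the controls, and for 5 of the 20 the 24 h arrays did. The genes were chosen on these same 24 h and 48 h arrays. No share over all probe sets was taken for these counts, so they do not show which time departed from untreated tumors.

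Sorting instead by size, 12 named genes differed by at least 4-fold with an unadjusted p under 0.05, a selection made after the values were seen. The 5 higher at 48 h were Cxcl9, Tgtp2, Igtp, Iigp1 and Gm4841, a predicted gene that read 9.71, 6.57 and 6.24 at 24 h and 9.36, 9.74 and 10.29 at 48 h. The 7 lower at 48 h were Thbd, Myf6, Ankrd1, Pdk4, Trim63, Il6 and Klhl40. Over the 49 gene lists, 31 medians were above 0, 17 below 0 and 0 lists held a gene past the threshold. Under at least 1 setting, 30 of the 49 medians changed sign. They include the muscle fiber median, which was 0 in the main fit, so that any other value was counted as a change.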

How the data were processed

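Total RNA from 12 frozen tumors was measured on single-colour arrays, 3 per group. The authors deposited 1 table of log2 values per probe set (1.75 to 19.93 over the arrays), made with Transcriptome Analysis Console 4.0 per the submitters' processing notes. The base of the logarithm was read from the range; background correction, summarization and genome build were not given in the sources used here. The values are normalized across arrays, so every difference is relative, and nothing was normalized again. Of 22206 probe sets, 19572 had 1 gene symbol and 2634 none in the platform annotation, all 19572 matched RefSeq (GRCm38.p6), and a gene's probe set with the highest mean over the 12 arrays was used. A mean per group was fitted over the 12 arrays with limma 3.58.1 in R 4.3.3 (lmFit, eBayes), two-sided, with Benjamini-Hochberg adjustment and a threshold of 0.05; the fit was tested on simulated data. Precision is limited by 3 arrays a group. No 2 arrays were identical. Named genes were the 10 smallest p in each direction, up to 4 members of each list described by unadjusted p, the genes past the threshold against the controls and a fixed panel; others are marked where they appear. The members and the 49 lists (18 of cell types) were chosen with earlier results of these data known. Same-numbered 24 h and 48 h arrays deviated from their group means with correlations of -0.20, -0.61 and -0.25. With 3 arrays a group these values cannot show whether the numbers pair tumors, and the main fit used no pairing. Alternatives left out arrays and dim probe sets, rescaled, and changed the variance model.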

Additional observations from a re-analysis of the deposited data

How the results depend on the processing

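The number of probe sets past the threshold was 0 under each of the 8 other settings and after leaving out each of the 12 arrays; the smallest adjusted p (limma, Benjamini-Hochberg) ranged from 0.334, without replicate 2 at 24 h, to 1. The number at an unadjusted p under 0.05, 863 in the main fit, was 549 with only the 6 arrays fitted and 922 with array weights. With single arrays left out it ranged from 691, without control replicate 2, to 1061, without replicate 2 at 72 h. That 72 h tumor entered only the estimate of the spread. With the lowest 25% of probe sets left out it was 543, out of fewer probe sets. The number with a 2-fold difference and an unadjusted p under 0.05, 154, ranged from 133 to 377 when single arrays were left out and was 210 with array weights, 153 after quantile normalization, 160 after centring and 137 with the replicate number as a block, which moved no call. Of the 116 genes named, 106 kept the sign of their difference under every setting run. A difference cannot change when a control or 72 h array is left out, or when only the 6 arrays are fitted. Nor can it change with the replicate block, with dim probe sets left out, or with a variance model other than array weights. A sign could change only when a 24 h or 48 h array was left out, under rescaling or with array weights. Many were named for a small p on these same arrays, which favours a kept sign. Where the arrays did not overlap, leaving out 1 array cannot change the sign. With array weights the differences of Il1b, Mylpf, Ttn and Lum were -0.46, -0.46, -0.35 and -0.19. When single arrays were left out, the differences with a changed sign ranged from -1.06 to 1.51 for Il1b, -0.44 to 2.0 for Rhag, -0.048 to 2.53 for Ppbp, -0.23 to 1.86 for Mylpf, -0.43 to 1.51 for Ttn, -0.43 to 1.43 for Lum, -1.74 to 1.47 for Arg1, -1.48 to 0.66 for Hmox1, -0.18 to 0.89 for Th and -0.013 to 0.40 for Mki67. Of 49 list medians, 19 kept their sign in every setting. Among them were the GTPase, MHC class I, neutrophil, skin, glucocorticoid, muscle stress and immediate-early lists. The settings that cannot change a gene's difference cannot change a list median either, except that leaving out dim probe sets can remove members. Under a rescaling, 3 list medians changed sign (dendritic, muscle fiber and adipocyte genes). The muscle fiber median was 0 in the main fit, so any other value was counted as a change. The cause of these shifts was not tested. Low signals, as for T cell and skin genes, limit what the arrays can resolve.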
